A study of Homo sapiens with 4 samples.

Results

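Flag-FLI1 binding was described at 9 genes that drive or restrain the growth of nasopharyngeal carcinoma cells, *MYC*, *CCND1*, *EGFR*, *CDKN2A*, *CDKN1A*, *RB1*, *PIK3CA*, *BCL2* and *TERT*. They were taken by their GENCODE 44 symbols, 9 of 20033 protein-coding genes. For each gene, all peaks within 3 kb of the transcription start site (TSS) of an annotated transcript (promoter peaks), elsewhere in the gene (gene body peaks) or within 100 kb of the gene (flank peaks) were collected from both peak lists. The windows covered 2.68 Mb and held 69 of 30819 control peaks and 82 of 39654 IFN-γ peaks. The data were Flag ChIP-seq of HK1, an established nasopharyngeal carcinoma line, made to overexpress Flag-tagged FLI1. Cells of both groups carried this transgene and received either PBS (the control) or IFN-γ for 24 h. The antibody recognised the Flag tag, and peaks therefore report the overexpressed protein and not native FLI1. There was 1 library per condition, inputs are not analysed here, and peak lists hold no expression markers by which the cell type could be checked.

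The fold enrichment deposited for a peak, below called its enrichment, is the number of fragments piled up at its summit plus 1, divided by the local background plus 1. Pileup and background were solved from the fold enrichment and −log10 p of each peak. Summits had a median pileup of 16 fragments for the control ChIP and 22 for the IFN-γ ChIP. The lowest background was 1.06 and 1.54 fragments, and their ratio of 1.46 was taken as the relative depth. A scaled ratio is the IFN-γ pileup over the control pileup divided by that depth ratio, and its range in parentheses is an exact 95% interval that covers counting error only. Without replicates the treatment effect could not be tested. The lists hold no signal under their calling cutoffs, so a missing peak is not evidence of an unbound site.

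FLI1 is a transcription factor of the ETS family, whose DNA-binding domain recognises a GGAA core. The oncogenic EWSR1-FLI1 fusion of Ewing sarcoma, which keeps this domain, is known to bind tandem GGAA repeats as well as single ETS sites. The 9 genes act at connected steps. The receptor tyrosine kinase EGFR and the PI3K catalytic subunit encoded by *PIK3CA* carry growth signals, MYC and cyclin D1 (*CCND1*) promote entry into the cell cycle, and the products of *CDKN2A* and *CDKN1A* inhibit cyclin-dependent kinases. RB1 holds cells before S phase until those kinases inactivate it, BCL2 blocks apoptosis, and TERT is the catalytic subunit of telomerase.

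The sequences at 9 IFN-γ summits are shown, from own-promoter, intronic and distal sites of these loci described below. These are not the 9 strongest sites, and the promoter peaks of *RB1* and *PIK3CA*, for example, are not among them. Each is 151 bases of the plus strand of GRCh38 centred on a summit. Capitals mark GGAA, its complement TTCC, and the AP-1 heptamers TGACTCA and TGAGTCA. The first 3 carry runs of tandem GGAA units, at chr11:69622135-69622285 upstream of *CCND1* (15 units), chr9:21914917-21915067 downstream of *CDKN2A* (14 units) and chr18:63377454-63377604 upstream of *BCL2* (16 units). Reads from tandem repeats can map to several places, and neither a filter on such reads nor the use of the input in calling is given in the sources used here, so the values at these runs may depend on both.
*CCND1* upstream repeat: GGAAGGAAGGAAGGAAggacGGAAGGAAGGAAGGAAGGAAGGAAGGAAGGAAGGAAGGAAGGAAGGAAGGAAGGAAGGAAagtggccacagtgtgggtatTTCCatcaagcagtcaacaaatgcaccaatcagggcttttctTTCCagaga
*CDKN2A* downstream repeat: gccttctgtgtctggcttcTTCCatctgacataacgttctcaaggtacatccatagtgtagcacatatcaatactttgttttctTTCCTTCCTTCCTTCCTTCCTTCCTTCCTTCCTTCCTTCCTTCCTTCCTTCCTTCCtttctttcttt
*BCL2* upstream repeat: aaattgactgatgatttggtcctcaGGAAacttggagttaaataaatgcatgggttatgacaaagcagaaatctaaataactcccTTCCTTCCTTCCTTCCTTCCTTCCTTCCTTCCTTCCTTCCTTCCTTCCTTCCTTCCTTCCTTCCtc
The next sequence holds the ETS octamer CAGGAAGT, at chr11:69599679-69599829 upstream of *CCND1*.
*CCND1* upstream ETS site: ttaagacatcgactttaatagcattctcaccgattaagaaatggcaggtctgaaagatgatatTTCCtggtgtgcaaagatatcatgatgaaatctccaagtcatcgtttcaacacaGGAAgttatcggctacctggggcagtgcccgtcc
The remaining 5 have neither a run nor the octamer. They lie at chr6:36680479-36680629 in intron 1 of *CDKN1A* (an exon of another of its annotated transcripts), chr9:21975038-21975188 upstream of the INK4a start of *CDKN2A*, chr9:21919778-21919928 55.0 kb downstream of *CDKN2A*, chr7:54996076-54996226 upstream of *EGFR* and chr13:48449012-48449162 in intron 17 of *RB1*.
*CDKN1A* intron: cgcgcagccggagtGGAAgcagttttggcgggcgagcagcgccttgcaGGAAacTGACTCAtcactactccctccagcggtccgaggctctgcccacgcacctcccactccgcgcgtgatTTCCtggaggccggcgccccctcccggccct
*CDKN2A* INK4a promoter: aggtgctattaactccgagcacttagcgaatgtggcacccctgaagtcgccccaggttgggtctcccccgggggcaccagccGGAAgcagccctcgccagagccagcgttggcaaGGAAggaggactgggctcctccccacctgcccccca
*CDKN2A* downstream: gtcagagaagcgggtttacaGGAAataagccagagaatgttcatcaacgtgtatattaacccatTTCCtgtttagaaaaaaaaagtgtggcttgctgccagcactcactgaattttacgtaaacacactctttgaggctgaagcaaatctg
*EGFR* upstream: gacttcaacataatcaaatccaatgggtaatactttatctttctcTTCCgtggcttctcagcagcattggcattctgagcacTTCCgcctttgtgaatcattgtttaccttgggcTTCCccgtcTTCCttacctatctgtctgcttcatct
*RB1* intron: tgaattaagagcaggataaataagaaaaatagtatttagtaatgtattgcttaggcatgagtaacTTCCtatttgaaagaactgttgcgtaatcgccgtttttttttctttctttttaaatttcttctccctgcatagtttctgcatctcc
The *CDKN1A* intron sequence holds the AP-1 heptamer TGACTCA, and each of the 5 holds at least 1 GGAA core.

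All 9 genes had a promoter peak in the control ChIP, and 7 had one in the IFN-γ ChIP, where *BCL2* and *TERT* had none. Of all protein-coding genes, 61.9% had a promoter peak in the control ChIP and 59.7% in the IFN-γ ChIP. The 9 genes have between 6 and 14 annotated TSSs each, against a median of 5 over protein-coding genes, and a gene with more TSSs has a larger promoter area. Each of the 9 had a peak somewhere in its window in both libraries, as did 91.3% and 93.7% of protein-coding genes. Of the 69 control peaks 16 were promoter, 7 gene body and 46 flank peaks, and of the 82 IFN-γ peaks these were 18, 11 and 53. The windows held 25.8 control peaks per Mb, against 13.5 over the windows of all protein-coding genes, and 30.6 against 16.7 IFN-γ peaks per Mb. The TSS nearest to a peak was that of the gene itself for 24 control and 33 IFN-γ peaks, and that of another gene for 45 and 49.

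**Figure D1:**
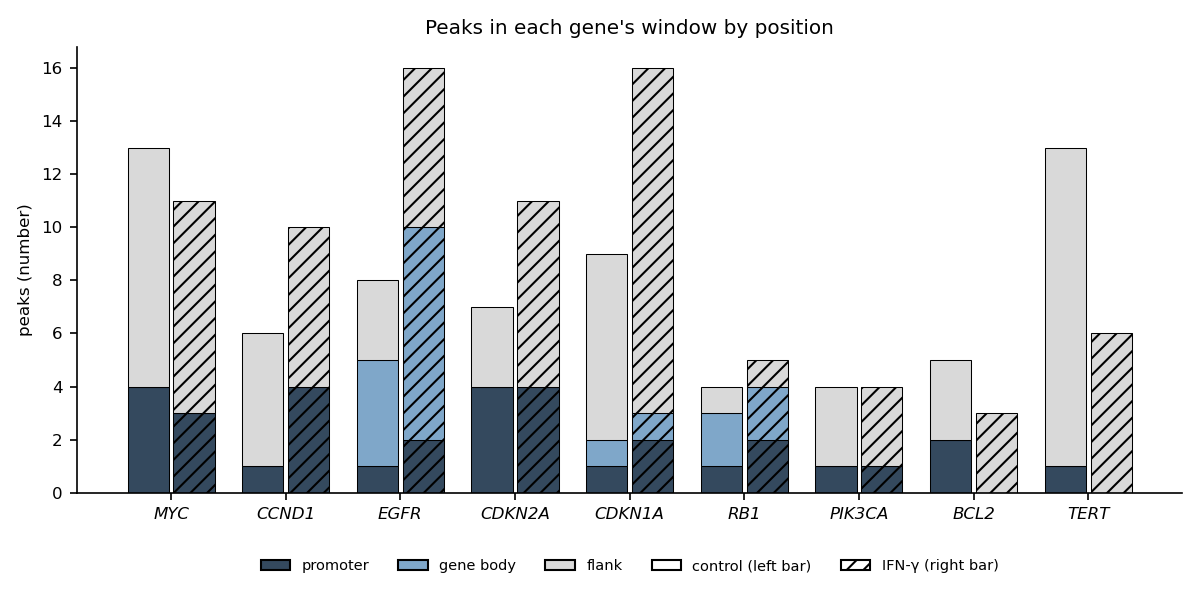
Number of peaks (vertical axis) in the window of each of the 9 genes, stacked as promoter, gene body and flank peaks, with the control ChIP as the left bar and the IFN-γ ChIP (hatched) as the right bar. *EGFR* and *CDKN1A* had 16 IFN-γ peaks each, and *BCL2* and *TERT* had promoter peaks in the control ChIP alone.

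The plot of counts shows that the windows differed in direction between the libraries. *EGFR* had 8 control and 16 IFN-γ peaks, *CDKN1A* had 9 and 16, *CDKN2A* had 7 and 11, and *CCND1* had 6 and 10. *TERT* had 13 control and 6 IFN-γ peaks, and *BCL2* had 5 and 3. *MYC* (13 and 11), *RB1* (4 and 5) and *PIK3CA* (4 and 4) were closer between the libraries. The IFN-γ list is the longer of the lists as a whole, and with its strongest peaks alone, as many as the control list has, the windows held 69 control and 65 IFN-γ peaks, so the higher IFN-γ total does not hold at equal list lengths.

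The inhibitors of cyclin-dependent kinases are described first. *CDKN1A* (ENSG00000124762), which encodes the inhibitor p21, spans 36676460 to 36687337 on chromosome 6 of GRCh38, plus strand. It had the strongest own-promoter peak of the 9 genes by fold in each library. In the control ChIP this peak, at 36678404 to 36680787, had an enrichment of 30.3 and a pileup of 80 fragments. In the IFN-γ ChIP it was narrower, at 36679989 to 36680820, with an enrichment of 36.5 and a pileup of 152. The scaled ratio was 1.30 (0.989 to 1.73), an interval that includes 1. By −log10 p the peak was in the top 2.62% of the control list and the top 1.09% of the IFN-γ list. Both summits lay in intron 1, 1.79 and 1.84 kb into the gene from the TSS of the MANE Select transcript, the reference transcript of a gene, rather than at that TSS. The sequence shown above for this intron holds the AP-1 heptamer and no ETS octamer.

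A second *CDKN1A* promoter peak, at 36679157 to 36679651, was called separately in the IFN-γ ChIP with an enrichment of 4.58 and overlaps the wide control peak. A gene body peak in intron 1 had enrichments of 6.36 in the control ChIP and 7.39 in the IFN-γ ChIP, and its scaled ratio was 1.55 (0.887 to 2.82). Its summits lay 349 bp apart. A site 33.1 kb downstream of the MANE TSS, in intron 2 of *RAB44*, had a pileup of 9 fragments in the control ChIP and 42 in the IFN-γ ChIP. Its enrichments were 4.87 and 16.2 and its scaled ratio was 3.21 (1.54 to 7.49). An ETS octamer lay within 100 bp of its summit in both libraries. The strongest flank peak in both libraries, in intron 13 of *CPNE5*, had enrichments of 17.6 and 21.8 and held an ETS octamer. In all, 8 of the 16 IFN-γ peaks of the *CDKN1A* window overlapped no control peak, as did 39.0% of the whole IFN-γ list. The strongest of the 8 lay in intron 12 of *RAB44* with an enrichment of 11.5. Of the 9 control peaks 2 overlapped no IFN-γ peak, against 22.5% of the whole control list.

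*CDKN2A* (ENSG00000147889) lies on chromosome 9 from 21967752 to 21995301 on the minus strand and has separate first exons for INK4a (p16), an inhibitor of CDK4 and CDK6, and for ARF (p14). The peak at the INK4a start had a pileup of 19 fragments in the control ChIP and 44 in the IFN-γ ChIP. Its enrichments were 8.55 and 14.4, its summits lay 260 and 256 bp upstream of the MANE TSS, and its scaled ratio was 1.59 (0.909 to 2.88). At the ARF start the control ChIP had 3 separate peaks with enrichments of 5.84, 6.81 and 9.25. One IFN-γ peak, from 21993623 to 21996363, spanned all of them with an enrichment of 9.46, and its summit lay 675 bp upstream of the closest *CDKN2A* TSS. Paired with the strongest of the 3, it gave a scaled ratio of 0.878 (0.453 to 1.73). These peaks also lie at the starts of the antisense gene *CDKN2B-AS1* and of ENSG00000266446, and a peak cannot be given to one of these genes over another. The IFN-γ ChIP had 2 more promoter peaks, of enrichment 3.55 and 4.19. The first had its summit 1.04 kb downstream of an internal TSS. The second had its summit 2.75 kb downstream of a TSS within the wide IFN-γ peak at the ARF start.

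The strongest peak of the *CDKN2A* window lay 55.0 kb downstream of the INK4a start, outside the canonical transcript of *MTAP*. It had a pileup of 27 fragments in the control ChIP and 82 in the IFN-γ ChIP, with enrichments of 13.6 and 32.7. The scaled ratio was 2.09 (1.34 to 3.35). The repeat shown above, 59.9 kb downstream, had pileups of 8 and 31 fragments and a scaled ratio of 2.66 (1.20 to 6.70). Another site, 55.6 kb upstream in intron 1 of *CDKN2B-AS1*, had pileups of 8 and 25 and a scaled ratio of 2.15 (0.938 to 5.50), an interval that includes 1. An IFN-γ peak at another run of 9 GGAA units, 58.7 kb downstream with an enrichment of 6.31, overlapped no control peak. Each of the 3 distal sites of the window that were called in both libraries was thus past 2-fold on the scaled pileup.

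*RB1* (ENSG00000139687), the retinoblastoma gene, lies on chromosome 13 from 48303744 to 48599436 on the plus strand. Its promoter peak had enrichments of 21.3 in the control ChIP and 18.9 in the IFN-γ ChIP. The summits lay 22 and 13 bp upstream of the MANE TSS, where the divergent lncRNA gene *RB1-DT* also starts. Pileups were 66 and 72 fragments, and the scaled ratio was 0.749 (0.529 to 1.06). The site shown above in intron 17, 145 kb into the gene, differed from the promoter. It had a pileup of 26 fragments and an enrichment of 6.72 in the control ChIP, and a pileup of 88 and an enrichment of 19.5 in the IFN-γ ChIP. Its scaled ratio was 2.32 (1.49 to 3.75), and its IFN-γ enrichment was slightly above that of the promoter. An IFN-γ promoter peak of enrichment 4.13 close to an internal TSS, also in intron 17, had no control counterpart.

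**Figure D2:**
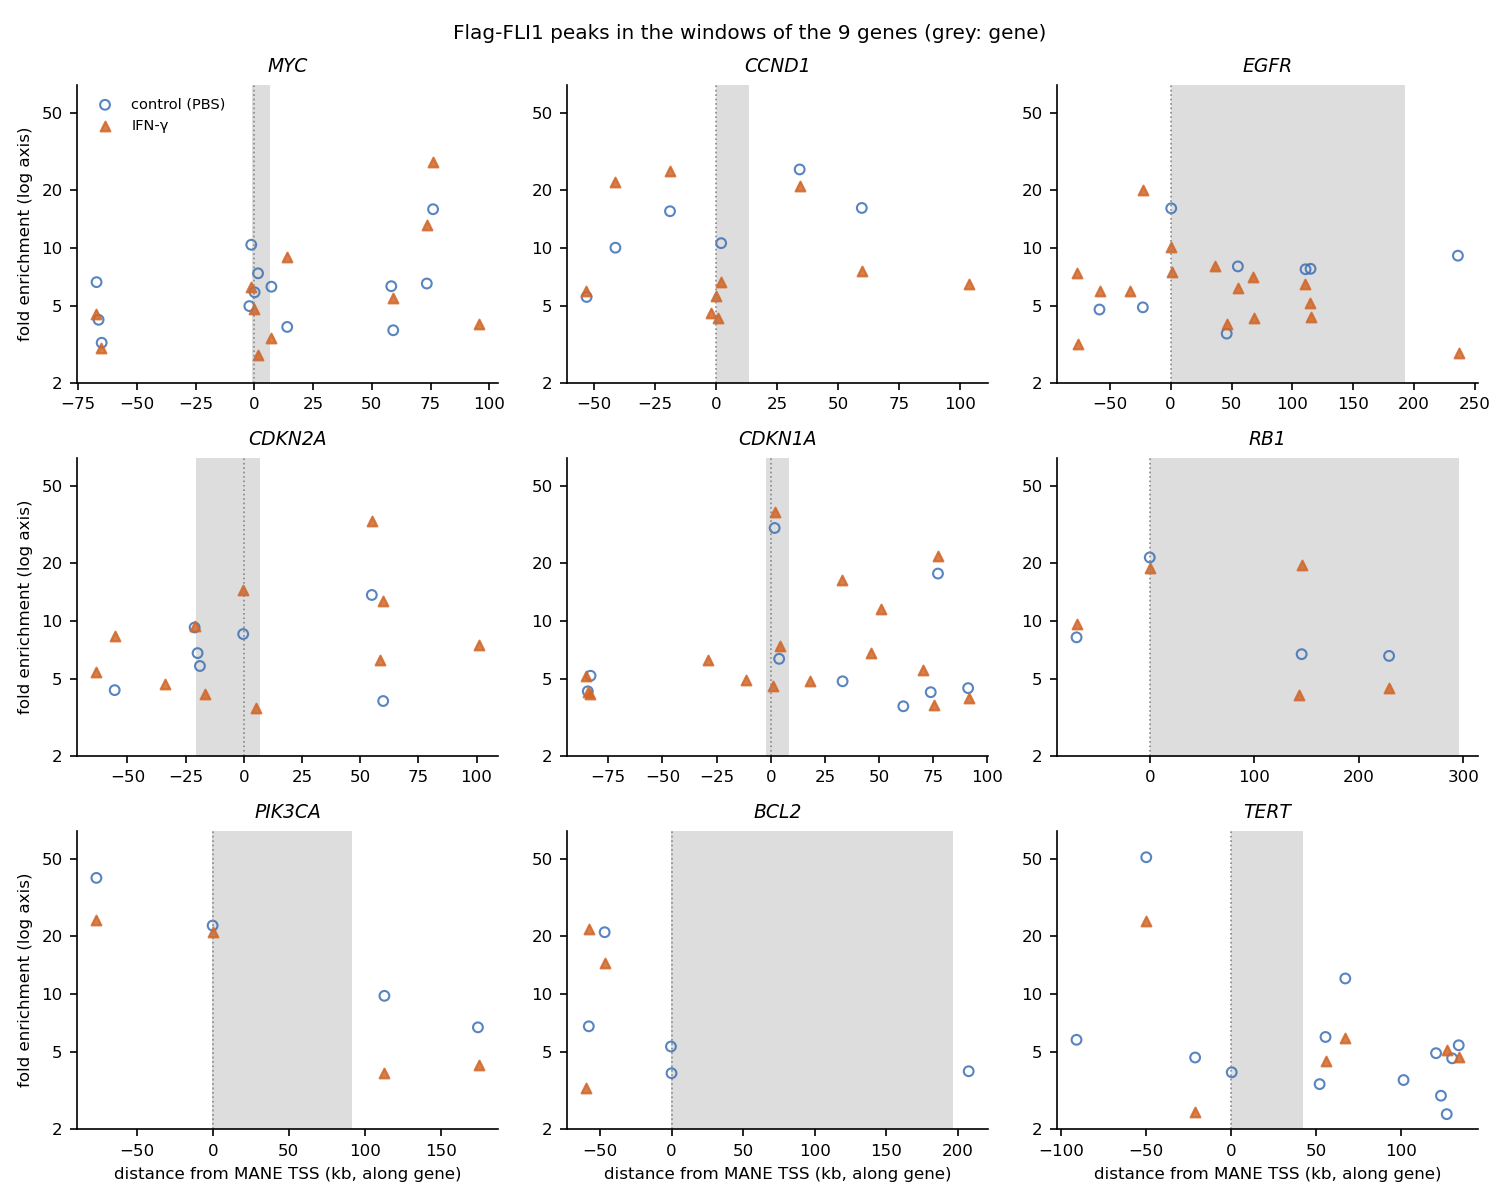
Position of every peak summit relative to the MANE TSS (horizontal axis, kb along the direction of transcription) against its fold enrichment (vertical log axis) for each of the 9 genes, with open circles for the control ChIP and triangles for the IFN-γ ChIP. Grey spans the gene. The *RB1* promoter summits nearly coincide, with 21.3 and 18.9, while the *RB1* intron summits lie apart, with 6.72 in the control and 19.5 in the IFN-γ ChIP.

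Among the genes that promote cell-cycle entry, *MYC* (ENSG00000136997), whose product is a transcription factor driving growth and proliferation, lies on chromosome 8 from 127735434 to 127742951 on the plus strand. Its promoter held 4 control peaks with enrichments of 4.98, 10.4, 5.87 and 7.37, and 3 IFN-γ peaks with 6.26, 4.80 and 2.79. The strongest in each library lay 1.32 and 1.30 kb upstream of the MANE TSS, with a pileup of 28 fragments in both and a scaled ratio of 0.687 (0.392 to 1.20). The peak at the MANE TSS had pileups of 16 and 21 and a scaled ratio of 0.901 (0.448 to 1.85). The peak in intron 1, at an internal TSS 1.5 kb downstream, had pileups of 20 and 12 fragments and a scaled ratio of 0.412 (0.184 to 0.885). The *MYC* promoter lies within the antisense lncRNA gene *CASC11*.

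Several distal peaks of *MYC* had ratios above 1. At 13.9 kb downstream of the MANE TSS, pileups were 12 fragments in the control ChIP and 43 in the IFN-γ ChIP, with a scaled ratio of 2.46 (1.27 to 5.13). This site is rich in GGAA cores, with a longest run of 7 units at the control summit and of 3 at the IFN-γ summit, 44 bp away. The strongest peak of the window in both libraries lay 76.0 kb downstream in intron 2 of the lncRNA gene *PVT1*, at a run of 6 units. Its pileups were 45 and 115, its enrichments 15.8 and 27.8, and its scaled ratio 1.76 (1.23 to 2.54). The neighbouring *PVT1* peak, 73.5 kb downstream, had pileups of 23 and 56 and a scaled ratio of 1.67 (1.01 to 2.85). The gene-proximal peak 7.1 kb downstream, with pileups of 20 and 20 and summits 155 bp apart, had a scaled ratio of 0.687 (0.351 to 1.35).

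*CCND1* (ENSG00000110092), which encodes the partner of CDK4 and CDK6 that phosphorylates RB1, lies on chromosome 11 from 69641156 to 69654474 on the plus strand. Its single control promoter peak, 2.0 kb into the gene, had a pileup of 22 fragments and an enrichment of 10.6. The IFN-γ ChIP had 4 promoter peaks with enrichments of 4.57, 5.62, 4.32 and 6.61. The last of them overlapped the control peak, with summits 165 bp apart, the same pileup of 22 and a scaled ratio of 0.687 (0.363 to 1.30). The others had pileups of 11, 14 and 11 and no control counterpart. In the IFN-γ ChIP both upstream sites shown above had higher enrichments than any *CCND1* promoter peak. The repeat 18.9 kb upstream had enrichments of 15.4 and 24.8 and a scaled ratio of 1.37 (0.879 to 2.19). The ETS site 41.4 kb upstream had pileups of 24 and 60 fragments, enrichments of 10.0 and 21.9, and a scaled ratio of 1.72 (1.05 to 2.88). The strongest control peak of the window was at the promoter of the neighbour *LTO1*, with enrichments of 25.4 and 20.9 and an ETS octamer, and the *FGF19* peak, 59.6 kb downstream, had 16.1 and 7.56.

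For the growth signalling genes, *EGFR* (ENSG00000146648), which lies on chromosome 7 from 55019017 to 55211628 on the plus strand, had a control promoter peak of enrichment 16.0 and pileup 32. The IFN-γ ChIP had 2 promoter peaks, with enrichments of 10.1 and 7.45 and pileups of 30 and 22. The first of them, 447 bp into the gene, had a scaled ratio of 0.644 (0.378 to 1.09). The distal site shown above, 22.9 kb upstream, had pileups of 22 and 75 fragments, enrichments of 4.91 and 19.8, and a scaled ratio of 2.34 (1.44 to 3.96). In the IFN-γ ChIP it was the strongest peak of the window, and in the control ChIP the promoter peak was. *EGFR* also had the most gene body peaks, 4 in the control and 8 in the IFN-γ ChIP, all in intron 1 with pileups from 9 to 25 fragments in the control ChIP and from 12 to 38 in the IFN-γ ChIP. The intron peaks paired between the libraries had scaled ratios from 0.687 to 1.45, with intervals that include 1. A downstream peak at the lncRNA gene *ELDR* had pileups of 19 and 13 and a scaled ratio of 0.470 (0.213 to 1.00), but its summits lay 666 bp apart. An IFN-γ peak 77.3 kb upstream, at a run of 10 GGAA units, had an enrichment of 7.36 and no control counterpart.

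*PIK3CA* (ENSG00000121879), which lies on chromosome 3 from 179148114 to 179240093 on the plus strand, had the same arrangement of 4 peaks in each library and no gene body peak. Its promoter peak had enrichments of 22.6 and 21.0 and pileups of 52 and 93 fragments, with a scaled ratio of 1.23 (0.866 to 1.76). The summits lay 75 and 107 bp upstream of the MANE TSS. The strongest peak of the window was at the promoter of *ZMAT3*, 76.6 kb upstream, with enrichments of 39.99 and 24.3, a pileup of 91 in both libraries and a scaled ratio of 0.687 (0.508 to 0.929). A peak 113 kb downstream of the TSS, at *KCNMB3* and the pseudogene *LRRFIP1P1*, had pileups of 27 and 14 and the lowest scaled ratio of the 9 windows, 0.356 (0.173 to 0.703). Its summits lay 136 bp apart.

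*BCL2* (ENSG00000171791), which lies on chromosome 18 from 63123346 to 63320128 on the minus strand, had 2 weak promoter peaks in the control ChIP. They had pileups of 7 and 10 fragments and enrichments of 3.89 and 5.35, and their summits lay 37 and 431 bp upstream of the MANE TSS. At the depth of the IFN-γ ChIP these pileups would be 10.2 and 14.6 fragments. The lowest pileup called in that list was 7 at its lowest background and 12 at backgrounds within 5% of 3.89, the median of the IFN-γ peaks of the window. The IFN-γ background at the promoter itself is not in the lists, so whether sites of unchanged strength would have been called could not be told. The nearest IFN-γ peak lay 46.0 kb from the closest annotated *BCL2* TSS, at the promoter of *KDSR*. That peak had enrichments of 20.9 and 14.5 and a scaled ratio of 1.14 (0.770 to 1.72). The repeat shown above, 57.8 kb upstream of the MANE TSS in intron 1 of *KDSR-DT*, had pileups of 13 fragments in the control ChIP and 67 in the IFN-γ ChIP. Its enrichments were 6.81 and 21.8, and its scaled ratio of 3.54 (1.94 to 6.99) was the highest of the 9 windows. No *BCL2* gene body peak was called in either library over the 197 kb of the gene. The median local background at the peaks of the *BCL2* window was 1.00 times the lowest of its list in the control ChIP and 2.54 times in the IFN-γ ChIP, and its part in these differences was not tested.

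*TERT* (ENSG00000164362), which lies on chromosome 5 from 1253147 to 1295068 on the minus strand, had 1 promoter peak, in the control ChIP. It lay in exon 1, 260 bp downstream of the MANE TSS, with a pileup of 8 fragments and an enrichment of 3.94, weaker by −log10 p than 93.2% of the control list. No *TERT* promoter peak was called in the IFN-γ ChIP, where the nearest peak lay 21.3 kb from the MANE TSS. The control pileup would be 11.6 fragments at that depth. The lowest pileup called in that list was 7 at its lowest background. It was 13 at backgrounds within 5% of 4.25, the median of the IFN-γ peaks of the window. The IFN-γ background at the *TERT* promoter itself is not in the lists, so whether a site of unchanged strength would have been called could not be told. The strongest peak of the window belonged to the promoter of the neighbour *CLPTM1L*, 50.02 kb upstream, which holds an ETS octamer. It had enrichments of 51.2 and 24.01, pileups of 153 and 125, and a scaled ratio of 0.561 (0.439 to 0.715). The other *TERT* flank peaks had enrichments from 2.39 to 12.1 in the control ChIP and from 2.46 to 5.91 in the IFN-γ ChIP. All 6 IFN-γ peaks of the window overlapped a control peak, while 7 of the 13 control peaks, the promoter peak included, overlapped no IFN-γ peak. Over the whole lists, 39.0% of IFN-γ and 22.5% of control peaks had no overlap. The median local background at the *TERT* peaks was 1.90 times the lowest of its list in the control ChIP and 2.77 times in the IFN-γ ChIP, and its part in these differences was not tested.

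The windows together gave 52 pairs, in which a control and an IFN-γ peak were each other's best match. Of these, 28 lay within 3 kb of the TSS of some annotated gene (TSS pairs) and 24 were distal to all TSSs. Among the 24 distal pairs, 8 (33.3%, 15.6% to 55.3%) had a scaled ratio of at least 2 and 0 had one of at most 0.5, where over all 9804 distal pairs these shares were 12.8% and 1.35%. Among the 28 TSS pairs, 0 had a ratio of at least 2 and 3 (10.7%, 2.27% to 28.2%) had one of at most 0.5, where over all 13657 such pairs the shares were 3.68% and 5.70%. The median scaled ratio was 1.58 at the distal pairs, against 1.24 over all distal pairs, and 0.828 at the TSS pairs, against 0.887 over all of them. The 8 higher pairs came from 6 of the windows, 3 of them from that of *CDKN2A* and 1 each from those of *MYC*, *EGFR*, *CDKN1A*, *RB1* and *BCL2*. The interval lay above 1 in 7 of the 8 and above the median of all distal pairs in 6, and it lay under 1 in 2 of the 3 lower pairs. These pairs were selected by the same ratios, so their intervals are no separate support. The share of all pairs past 2-fold with such intervals is not given here. Among the 10 pairs at the genes' own promoters, the median was 0.813, with 1 past 2-fold, the *MYC* intron peak. *BCL2* and *TERT*, with promoter peaks in the control ChIP alone, gave none of these pairs.

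**Figure D3:**
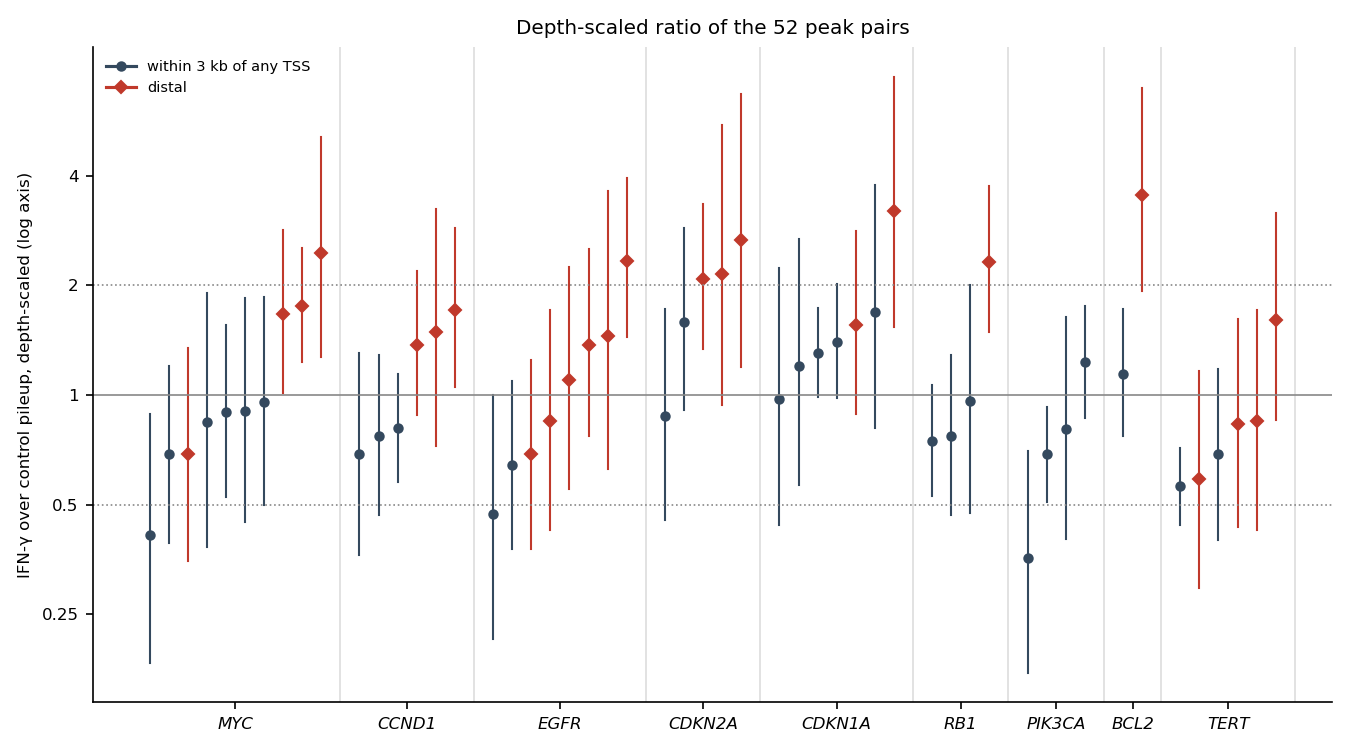
Depth-scaled ratio of IFN-γ to control pileup (vertical log axis) for the 52 pairs, ordered by ratio within each gene, with circles for pairs within 3 kb of any TSS, diamonds for distal pairs and lines for exact 95% intervals of counting error. Dotted lines mark ratios of 0.5 and 2. The 8 points above 2 are distal pairs and the 3 points under 0.5 are TSS pairs.

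The cumulative plot sets the pairs of the 9 genes beside all pairs. The whole lists already differ in this direction, with a median of 1.24 at distal and 0.887 at TSS pairs, so the direction at the 9 genes is that of the background. The interval of the share of distal pairs past 2-fold at the 9 genes, 15.6% to 55.3%, lies above 12.8%, but it treats as independent pairs that share a locus and leaves out variation between libraries. With peaks at q under 1e-05 alone, the 8 higher pairs became 4 and the 3 lower ones 0. By the ratio of fold enrichments the higher pairs numbered 10 and the lower pairs 6.

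An IFN-γ peak overlapped 55 of the 69 control peaks (79.7%, 68.3% to 88.4%), and 14 (20.3%) had no overlap, where 22.5% of the whole control list had none. Of the 82 IFN-γ peaks, 55 (67.1%, 55.8% to 77.1%) overlapped a control peak and 27 (32.9%) did not, where 39.0% of the whole IFN-γ list did not. With lists of equal length the shared shares were 71.0% of control and 75.4% of IFN-γ peaks, so their order depends on the lengths of the lists. Of the 27, 17 were distal and 10 lay at a TSS. The 17 were 40.5% of the distal IFN-γ peaks of the windows, where 52.98% of all distal IFN-γ peaks had no overlap. The 10 were 25% of the IFN-γ peaks of the windows at a TSS, where 23.1% of all such peaks had none. *CDKN1A* held 8 of the 27, *EGFR* and *CDKN2A* held 6 each, *CCND1* held 4, and *MYC*, *RB1* and *BCL2* held 1 each.

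Motifs were searched within 100 bp of each summit on both strands. The ETS octamer, CAGGAAGT or CCGGAAGT, was found at 12 (17.4%) of the 69 control and 13 (15.9%) of the 82 IFN-γ summits, where 12.8% and 13.5% of all summits held it. The AP-1 heptamers were at 8 (11.6%) and 15 (18.3%), against 14.1% and 17.2%. Runs of at least 4 tandem GGAA units were at 5 (7.25%) and 6 (7.32%), against 6.94% and 10.8%, and all of these were distal. The exact 95% intervals of these 6 shares each include the background share, and the motifs overlap in their cores, since a run can hold part of the octamer. At the promoters of the 9 genes themselves the octamer was at 1 of 16 control peaks (6.25%, 0.158% to 30.2%), on the ARF side of *CDKN2A*, and at 0 of 18 IFN-γ peaks (up to 18.5%). Over all peaks at a TSS, 13.4% of control and 15.0% of IFN-γ summits held it, shares that both intervals include. At least 1 GGAA core was found at 68 control and 80 IFN-γ summits, a short word that most windows of this width hold.

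RefSeq promoters of GRCh38.p14, each 250 bases before to 50 after a gene's start, were matched for 7 of the 9 genes, all but *MYC* and *CCND1*. None of the 9 promoters of these 7 genes held the ETS octamer, where 7.02% of the 35116 promoters of the table did. The only *RB1* promoter matched, at 48476200 to 48476499, lies inside the gene, so the one at its MANE TSS was not among these 9. An *EGFR* promoter at 55109589 to 55109888 also lies inside the gene, beside one at the MANE TSS. A match or its lack describes these letters only.

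Of 72 further genes of the same pathways, 65 (90.3%) had a promoter peak in the control ChIP and 61 (84.7%) in the IFN-γ ChIP, against the 61.9% and 59.7% of protein-coding genes given above. Both libraries had one at 59 of the 72. The strongest promoter peaks of the genes named below with one in the control ChIP alone had pileups of 10 to 16 fragments. The median over all control peaks was 16. *CDKN2B* and *BCL2A1*, with one in the IFN-γ ChIP alone, had 11 and 30, where the median was 22. Whether these sites fell under the other list's cutoff was not tested, and the share of all genes with such a difference was not computed. The 72 were chosen by function with earlier results of these data known, and their numbers of TSSs are not given here. The strongest gene of each list is given by −log10 p, with its control and IFN-γ enrichments. All 9 PI3K-AKT genes had a promoter peak in both. *PIK3R1*, which encodes a regulatory subunit of PI3K, had the strongest of them in the control ChIP, with enrichments of 23.8 and 10.1, and *PIK3R2* in the IFN-γ ChIP, with 11.4 and 14.4.

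Of 8 G1-S cyclins and kinases, 7 had a promoter peak in the control ChIP and 5 in the IFN-γ ChIP. *CCND2* had none in either, *CCNE1* and *CDC25A* had one in the control ChIP alone, and the strongest were *CCNE2* (17.1 and 9.81) and *CCND3* (12.6 and 13.9). Of 5 further CDK inhibitors, 4 and 5 had one. *CDKN1C*, which encodes p57, led the control ChIP with 18.3 and 6.99, *CDKN2C*, which encodes p18, led the IFN-γ ChIP with 14.8 and 16.1, and *CDKN2B* had its peak in the IFN-γ ChIP alone. Of 8 pocket protein and E2F genes, all had one in the control ChIP and all but *E2F1* in the IFN-γ ChIP, led by *E2F4*, a mainly repressive E2F, with 38.8 and 35.7.

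Of 11 EGFR family and RAS genes, 8 had a promoter peak in both libraries, and the receptor gene *ERBB4* and the ligand genes *EGF* and *EREG* had none in either. *NRAS* was the strongest, with enrichments of 32.0 and 39.4. Of 10 further BCL2 family genes, 9 and 8 had one. The strongest was *BCL2L1*, which encodes the apoptosis inhibitor BCL-XL, with 36.8 and 39.2. Both libraries had one at 7 of the 10, *BAX* and *BID* had one in the control ChIP alone and *BCL2A1* in the IFN-γ ChIP alone. The pro-apoptotic genes *BAK1*, *BBC3*, *BAD*, *PMAIP1* and *BCL2L11* had one in both. Of 9 telomerase and shelterin genes, 8 had one in both and *NHP2* had none. *NOP10*, a component of the telomerase ribonucleoprotein, was the strongest with 36.5 and 52.3. Of 7 genes of the MYC network, 7 and 6 had one, led by *MLX* with 47.5 and 38.5, and *MYCN* had one in the control ChIP alone.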

How the data were processed

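Flag ChIP-seq libraries of HK1 cells overexpressing Flag-FLI1, 1 with PBS and 1 with IFN-γ, were used. According to the methods and the submitters' processing notes, the authors used cutadapt 1.18 for trimming, Bowtie2 2.3.4.1 for alignment to GRCh38, Picard for removal of duplicates and MACS2 2.1.2 for peaks in each library. Whether inputs entered the calling, and a filter on multiply mapped reads, are not given in the sources used here. The deposited lists give for each peak a fold enrichment (a ratio), −log10 p-value, −log10 q-value, the summit offset and a score that was not used.

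Whole-number pileups and backgrounds were recovered from the deposited fold and −log10 p with a largest relative error of 6.21e-06. Pileups were scaled by the ratio of lowest backgrounds, 1.46. Peaks overlapping by at least 1 bp were shared, and pairs were each other's best match. Intervals at a confidence level of 95% are exact binomial ones (Clopper-Pearson) and cover counting error only. Genes and TSSs came from GENCODE 44. Pileup recovery, overlaps, nearest TSSs, the finding of GGAA runs and the interval of the ratio were tested on simulated data. The members and gene lists were chosen with earlier results of these data known. Named were all members, their promoter peaks, the strongest gene body and flank peak per library, every pair past 2-fold, and per pathway list the strongest gene in each library and those without a promoter peak in either. One pathway list and 1 summit sequence are not reported here. Other peaks and genes named, such as those with GGAA runs, were chosen after their values were seen. Alternatives were other windows, promoter and TSS definitions, overlaps, q cutoffs, motifs and scalings. The tools were samtools 1.23.1, matplotlib 3.10.9, pysam 0.24.0, pandas 2.3.3, scipy 1.17.1 and numpy 2.4.6 under Python 3.11.15.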

Additional observations from a re-analysis of the deposited data

How the results depend on the processing

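With 1 library per condition no comparison has a replicate check, and ratios of single peaks rest on few fragments. No paired analysis was possible because neither treatment has a second ChIP library. Of 70 alternatives computed, 50 moved a value by less than its interval or 1.5 times and 20 moved it further. The alternatives for promoter peaks were all stricter, so *BCL2* and *TERT* could gain no IFN-γ promoter peak under them, and *TERT* lost its control one at q under 1e-05. With lists of equal length the windows held 69 control and 65 IFN-γ peaks, and 71.0% and 75.4% of them were shared. Windows of 50 kb held 42 control and 54 IFN-γ peaks, those of 200 kb held 116 and 140, and peaks nearest to the gene's own TSS numbered 24 and 33. Shared shares fell to 62.3% and 52.4% where at least 50% of each peak had to overlap, and to 59.4% and 50% where summits had to lie within 100 bp. At q under 1e-05 there were 4 pairs with a ratio of at least 2 and 0 with one of at most 0.5. By the ratio of fold enrichments these numbered 10 and 6. The lower pairs numbered 1 with summits within 100 bp. The octamer CCGGAAGT alone was at 2.90% and 2.44% of summits, and AP-1 heptamers within 50 bp were at 4.35% and 8.54%. The median distance from a gene's closest annotated TSS was 157 and 282 bp when measured to the summit, in place of 0 bp to the peak. The cause of these moves was not tested beyond what each definition itself changes.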

Other observations

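The local background at the peaks differed between the 9 windows. In both libraries the median background at the *CDKN2A* peaks was 1.00 times the lowest of the list, and at the *CCND1* peaks it was 1.19 and 1.21 times. At the *MYC* peaks it was 1.96 times in the control library and 2.42 times in the IFN-γ library, at the *RB1* peaks 2.44 and 1.86 times, and at the *TERT* peaks 1.90 and 2.77 times. At the *BCL2* peaks it was 1.00 times in the control library and 2.54 times in the IFN-γ library, over 5 and 3 peaks. The medians over all peaks were 1.29 and 1.61 times. The background scales the fold enrichment, and its part in the differences between windows was not tested.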
